A study of Homo sapiens with 3 samples.

Results

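The 10 genes described here, H19, IGF2, MEG3, DLK1, PEG3, PEG10, MEST, NDN, PLAGL1 and GRB10, are imprinted genes, and they were read among 18417 genes measured in C33A cells. Members were found by their gene symbol in the platform annotation, taking first the probe sets that carry 1 symbol. Of the 10 genes, 7 had a probe set of their own, and H19, IGF2 and PEG3 were measured only through a probe set that also carries another gene. C33A is an established human cervical carcinoma line. Total RNA was prepared 3 times from untreated, exponentially growing cells and measured on an Affymetrix Human Gene 1.0 ST array each. Whether the preparations came from separate cultures is not stated, so the spread between arrays may be technical. All 3 arrays belong to the 1 group C33A, so no comparison between conditions exists and no test was made. The values are log2 signals normalised together over the 3 arrays by the Robust Multichip Average (RMA).

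An imprinted gene is transcribed mainly from the allele inherited from 1 parent, in a pattern laid down as DNA methylation in the germ line and kept in the cells of the body. Such genes lie in clusters, and a differentially methylated control region in a cluster can act as a promoter, or as an insulator bound by CTCF, as it does between IGF2 and H19. Many of them act on growth of the fetus and placenta, and several are switched off after birth in most tissues. CHD8, the chromatin remodeller studied in these cells, is known as a partner of CTCF at the H19 insulator. An expression array sums both alleles, so the parental origin of a transcript was not measured.

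The arrays were close to each other, with pairwise correlations over genes of 0.993 to 0.994 and a median SD over the arrays of 0.08 for all genes. The median gene had a signal of 6.91, with quartiles at 5.18 and 8.68. The values carry no call of presence or absence, so each signal was read against 455 genes whose families stay off in most tissues, here called the silent families: keratin-associated proteins, beta-defensins, and olfactory and taste receptors. Their median was 4.05, and their 95th percentile, 6.43, is called the bound here. Proliferation markers lay above the bound in 4 of 4 cases, epithelial markers in 2 of 9, mesenchymal markers in 3 of 6, leukocyte markers in 1 of 4, and endothelial and trophoblast markers in 0 of 4 and 0 of 5. These counts stand beside 56.3% of all measured genes above the bound. The epithelial genes above it were KRT18 (7.75) and KRT14 (6.86), and EPCAM (4.52) and CDH1 (4.95) were among those below it. The leukocyte marker above it was PTPRC (8.82).

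Of the 10 imprinted genes, 2 had a mean signal above the bound, PEG10 and DLK1, and both had a probe set of their own. Over all measured genes, each read on probe sets of its own, 56.3% were above it. The like count of members with their own probe set was 2 of 7 (28.6%). The count among the 10 rests on where the bound is set. With the 99th percentile of the silent families it was 1, PEG10. With the 95th percentile of the olfactory receptor genes alone, 5.38, it was 6, with H19, IGF2, PLAGL1 and MEG3 added. The shares of all genes above these other bounds are not given here, and the 56.3% does not apply to them. The plot of the members by array shows 1 gene far above the rest and 9 genes at or below the median of all genes. Of the 7 members known to be expressed from the paternal allele, 5 had their own probe set and 2 of these 5 were above the bound. The paternal members on shared probe sets, IGF2 and PEG3, were below it. Of the members known to be expressed from the maternal allele, MEG3 had its own probe set and was below the bound. H19, on a shared probe set, was below it on the mean but not on array 1. With only 1 maternal member on its own probe set, the alleles are not compared. Signals of different probe sets depend on their probes as well as on the transcript, so the order of the members is a description only.

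**Figure D1:**
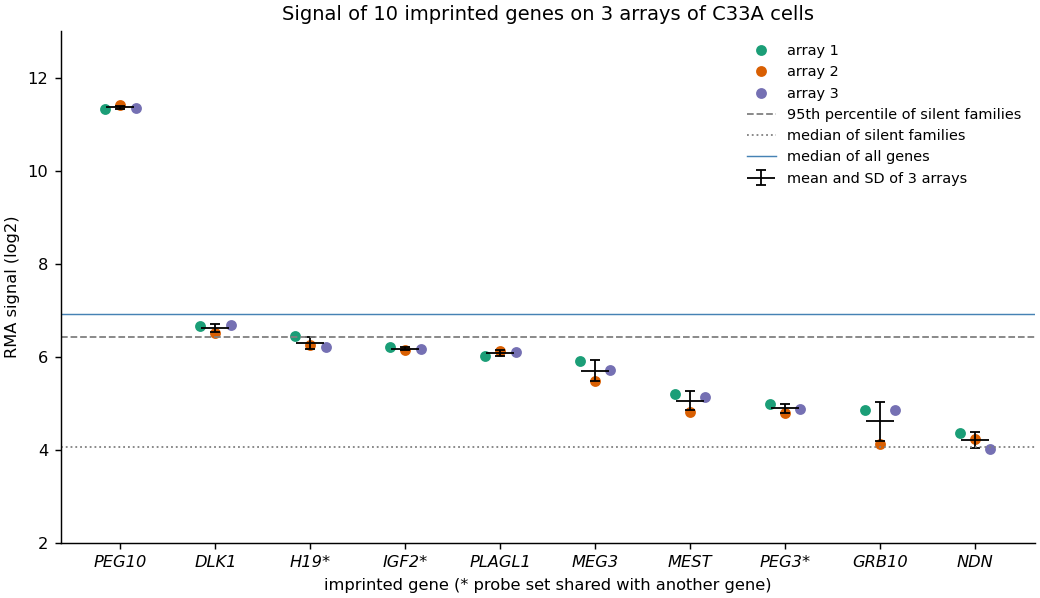
RMA signal (log2, vertical axis) of the 10 imprinted genes on the 3 arrays (points), with the mean and SD of the 3 arrays (bars); lines mark the median of all genes, the 95th percentile and the median of the silent families. PEG10 sits at 11.36, DLK1 at 6.62 just above the 95th percentile of 6.43, and the other 8 genes lie below it, down to NDN at 4.21.

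PEG10, a paternally expressed gene derived from a retrotransposon and needed for the placenta, had signals of 11.33, 11.40 and 11.35 on arrays 1, 2 and 3 (11.36 ± 0.04, SD, n = 3). The 3 arrays differed by 0.07 at most, and 98.4% of all genes had a lower mean. Its mean lay 4.93 above the bound, and it was above all 455 genes of the silent families. No other member reached the highest 10% of genes.

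DLK1, a paternally expressed transmembrane ligand related to the Notch ligands, gave 6.65, 6.52 and 6.69 (6.62 ± 0.09, SD, n = 3). It was above the bound of each array taken alone, but by only 0.19 on the mean, and 96.9% of the silent-family genes were lower. MEG3, the maternally expressed long noncoding RNA of the same cluster on chromosome 14, gave 5.92, 5.47 and 5.72 (5.70 ± 0.23, SD, n = 3). It was below the bound on all 3 arrays, and its range did not overlap that of DLK1.

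H19 is a maternally expressed noncoding RNA, abundant in fetal tissues, and its only probe set is annotated to RPS12 as well. That probe set gave 6.44, 6.26 and 6.20 (6.30 ± 0.12, SD, n = 3), which was above the array's own bound of 6.42 on array 1 and under it on arrays 2 and 3. IGF2, the paternally expressed fetal growth factor next to H19 on chromosome 11, was read with INS and INS-IGF2. It gave 6.21, 6.14 and 6.17 (6.17 ± 0.03, SD, n = 3), below the bound on every array. The ranges of H19 and IGF2 overlapped, and 93.8% and 93.0% of the silent-family genes had lower means. Because RPS12, INS and INS-IGF2 share the probe sets, the part of H19 and IGF2 in these signals cannot be told apart from theirs.

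PLAGL1, a paternally expressed zinc finger transcription factor, gave 6.02, 6.12 and 6.11 (6.08 ± 0.06, SD, n = 3). It was 0.35 below the bound. MEST, a paternally expressed gene for a protein of the hydrolase fold family, gave 5.20, 4.82 and 5.14 (5.05 ± 0.20, SD, n = 3). PEG3, a paternally expressed zinc finger gene whose probe set is shared with ZIM2, gave 4.99, 4.80 and 4.88 (4.89 ± 0.10, SD, n = 3). The ranges of MEST and PEG3 overlapped, and both lay more than 1 unit below the bound.

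GRB10, an adaptor that dampens signalling from the insulin and IGF1 receptors, uses either parental allele depending on promoter and tissue. It gave 4.85, 4.12 and 4.86 (4.61 ± 0.42, SD, n = 3), with array 2 well under the other two. NDN, the paternally expressed intronless gene for necdin in the Prader-Willi region of chromosome 15, was the lowest member at 4.37, 4.24 and 4.02 (4.21 ± 0.18, SD, n = 3). Its mean was near the median of the silent families, with 56.9% of them lower. The ranges of GRB10 and NDN overlapped, and NDN was the higher of the pair on array 2.

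Ordered by mean signal, the members ran PEG10, DLK1, H19, IGF2, PLAGL1, MEG3, MEST, PEG3, GRB10 and NDN. Neighbours overlapped over the arrays for H19 and IGF2, MEST and PEG3, PEG3 and GRB10, and GRB10 and NDN. The remaining 5 neighbouring pairs did not overlap, with means that differed by 0.09 between IGF2 and PLAGL1, 0.32 between DLK1 and H19, 0.38 between PLAGL1 and MEG3, 0.65 between MEG3 and MEST, and 4.74 between PEG10 and DLK1.

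The spread over the arrays differed among the members. GRB10 had an SD of 0.42, larger than 99.02% of the genes in its decile of signal, where the median SD was 0.13. MEG3 followed, with an SD larger than 90.9% of its decile, and MEST with 80.1%. At the other end, IGF2 had a larger SD than 6.35% of the genes in its decile and PLAGL1 than 17.1%. In all, 5 of the 10 members had an SD below the median of their decile.

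**Figure D2:**
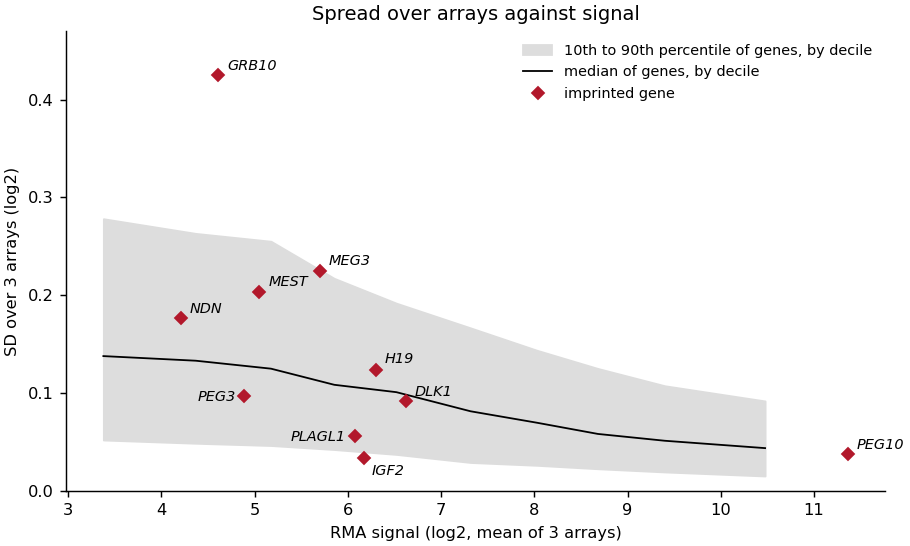
SD over the 3 arrays (log2, vertical axis) against mean RMA signal (log2, horizontal axis) for the 10 imprinted genes (diamonds), with the median (line) and the 10th to 90th percentile (grey band) of all genes by decile of signal. GRB10, at an SD of 0.42, lies outside the band, MEG3 is at its upper edge, and PEG10 is near the line.

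Array 2 carried the lowest value for 6 of the 10 members, DLK1, IGF2, MEG3, MEST, PEG3 and GRB10, while arrays 1 and 3 carried it for 2 each. Over all genes array 2 was the lowest in 35.8%, and over genes at or below the bound in 43.7%. Without array 2 the SD of GRB10 was 0.0057 and that of MEST was 0.04. With 10 members, a count of 6 is near this last share, and nothing is read from it.

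The clusters were followed through 54 other genes that lie beside the members, of which 41 had a probe set of their own, 6 a shared one, and 7 are not analysed here. Of the 41 genes, 21 (51.2%) were above the bound, against 56.3% of all genes. A neighbour above the bound stood beside a member below it in 5 of the 8 clusters read this way, as the plot of clusters shows. The PEG10 cluster holds no member below the bound and could not be counted. Since 51.2% of the neighbours were above the bound, a cluster with several of them can be counted through that share alone. Nothing is read from the 5 about the members.

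**Figure D3:**
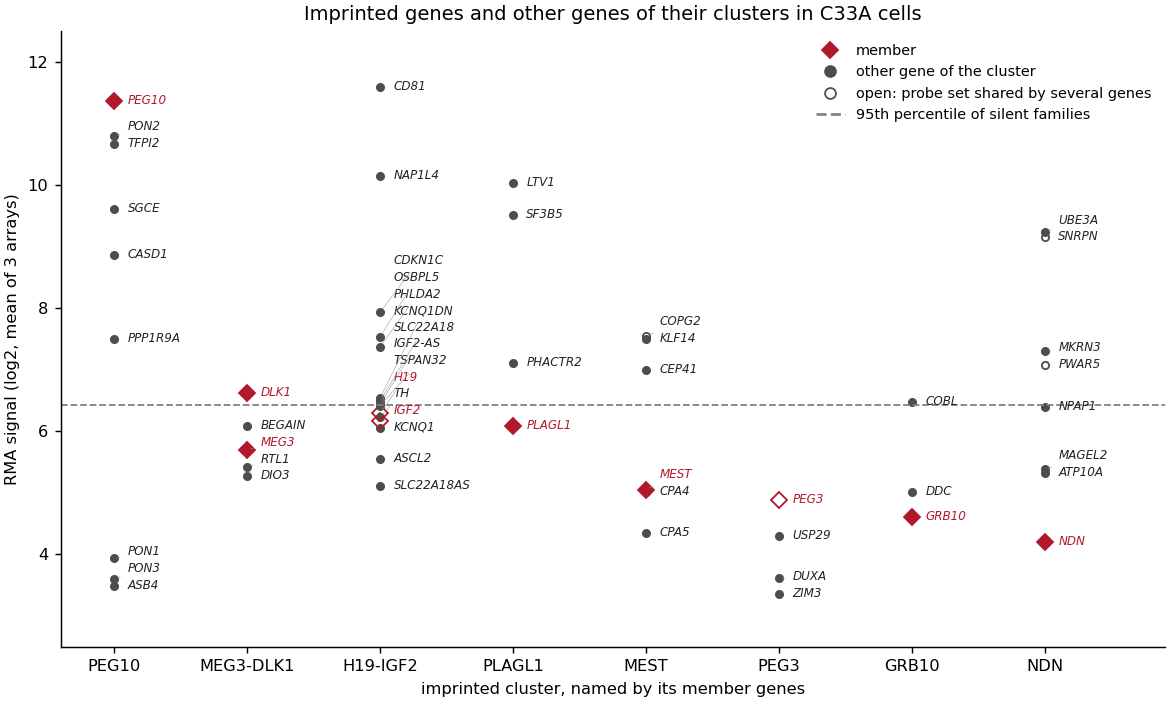
Mean RMA signal (log2, vertical axis) of the members (diamonds) and the other genes of their clusters (circles), by cluster; open symbols are probe sets shared by several genes, the dashed line is the 95th percentile of the silent families, and names are moved off their points, in the order of the points, where these crowd. PEG10 (11.36) stands with PON2 and TFPI2 at the top of its cluster, whereas NDN (4.21) is the lowest gene of a cluster that holds UBE3A (9.24).

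In the PEG10 cluster on chromosome 7, 5 of 8 neighbours were above the bound. SGCE, the paternally expressed sarcoglycan gene that shares a promoter region with PEG10, gave 9.62 ± 0.05 (SD, n = 3). TFPI2, a serine protease inhibitor, gave 10.67 ± 0.11, and PON2, a paraoxonase, 10.79 ± 0.05. CASD1 gave 8.86 ± 0.13 and PPP1R9A 7.50 ± 0.17, while PON1 (3.93), PON3 (3.60) and ASB4 (3.49) were below. The high signals of this cluster were thus not shared by every gene in it.

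In the H19 and IGF2 cluster, 8 of 13 genes with their own probe set were above the bound, 5 of them well away from it. CDKN1C, the maternally expressed cyclin-dependent kinase inhibitor, gave 7.94 ± 0.04 (SD, n = 3), and PHLDA2, a maternally expressed restrainer of placental growth, 7.37 ± 0.19. CD81 (11.59 ± 0.02), NAP1L4 (10.15 ± 0.02) and OSBPL5 (7.53 ± 0.06) were also above it. KCNQ1DN (6.54), SLC22A18, now named SLC67A1 (6.50), and IGF2-AS, the antisense transcript of IGF2 (6.44), were close to the bound. KCNQ1 (6.06) and ASCL2 (5.54), imprinted genes of the same region, were below it.

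In the cluster of DLK1 and MEG3, 0 of 3 neighbours were above the bound. RTL1, a retrotransposon-derived gene expressed from the paternal allele, gave 5.43 ± 0.13 (SD, n = 3), and DIO3, the deiodinase that inactivates thyroid hormone, 5.27 ± 0.03. BEGAIN gave 6.09 ± 0.20. The cluster of PEG3 was likewise at 0 of 3, with USP29, a paternally expressed deubiquitinase gene, at 4.29 ± 0.33.

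Around NDN, the signals spread from low to high within 1 imprinted region. UBE3A, the ubiquitin ligase lost in Angelman syndrome, gave 9.24 ± 0.03 (SD, n = 3), and MKRN3, a paternally expressed ring finger gene, 7.31 ± 0.04. The probe set shared by SNURF and SNRPN, which are read from the paternal allele on 1 transcript, gave 9.06, 9.24 and 9.16. The probe set shared by the noncoding RNA gene PWAR5 and SNORD64 gave 7.08 ± 0.26. MAGEL2, the MAGE family gene nearest in kind to NDN, gave 5.38 ± 0.11, NPAP1 6.39 ± 0.22 and ATP10A 5.33 ± 0.09, all below the bound. NDN and MAGEL2 were thus below the bound in a region where MKRN3 and the probe set shared by SNURF and SNRPN were above it. SNRPN is annotated to 8 probe sets, all shared. Among those it shares with small RNA genes, values of 2.09 and 2.88 lay below the bound and 7.02 and 10.60 above it.

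Near MEST, KLF14, a maternally expressed transcription factor gene, gave 7.51 ± 0.05 (SD, n = 3) and CEP41 6.99 ± 0.05, and the probe set of COPG2, shared with TSGA13, 7.55 ± 0.07. CPA4, a carboxypeptidase gene imprinted in some tissues, was at 5.02. Near PLAGL1, 3 of 3 neighbours were above the bound, LTV1 (10.04), SF3B5 (9.51) and PHACTR2 (7.11). Near GRB10, COBL gave 6.47 ± 0.07, close to the bound, and DDC, the decarboxylase that makes dopamine and serotonin, 5.02 ± 0.22.

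Small RNA genes lie in tandem along the MEG3 and SNRPN transcripts. Between DLK1 and DIO3, 22 of 101 small RNA genes had their own probe set, 16 for miRNAs and 6 for small nucleolar RNAs (snoRNAs). None of these 22 was above the bound on the mean of the arrays, and their median was 2.84. The highest were MIR134 (6.41 ± 0.04, SD, n = 3), MIR127 (5.67 ± 0.11) and MIR323B (5.65 ± 0.21), and the lowest was MIR376C (2.06). Over all 173 miRNA genes with their own probe set, 12.7% were above the bound. The mature miRNAs of the first 2 are shown because their hairpins carried the strongest signals of this cluster, with the seed, bases 2 to 8, in capitals (RefSeq, GRCh38.p14). The seeds differ, and the array probes read the hairpin genes, not the mature forms.
hsa-miR-134-5p, chr14:101054694-101054715, plus strand: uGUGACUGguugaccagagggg
hsa-miR-127-3p, chr14:100883035-100883056, plus strand: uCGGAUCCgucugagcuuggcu

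Between NDN and UBE3A lie the SNORD116 and SNORD115 families, C/D box snoRNAs processed from the paternal SNRPN host transcript. Of 20 SNORD116 copies with their own probe set, 6 were above the bound, against 50.3% of all 175 snoRNA genes measured. The 175 include these 20 copies and the SNORD115 copies below, so they are not a separate reference. Among the 6, SNORD116-1 (6.52 ± 0.29) was above the array's own bound on 1 array only. A further 9 copies were read only from shared probe sets, often several copies to a probe set, and 8 of these 9 were above the bound. They are not separate readings. SNORD116-3, SNORD116-5, SNORD116-7, SNORD116-8 and SNORD116-9 repeat the same value of 8.47, and SNORD116-17 and SNORD116-19 the same value of 10.60. SNORD116-4 gave 7.02, and SNORD116-2, at 6.21, was below the bound. SNORD116-15 gave 10.71 ± 0.20 (SD, n = 3), SNORD116-14 9.93 ± 0.13, SNORD116-20 9.04 ± 0.20 and SNORD116-21 8.87 ± 0.02. The copies with their own probe set ran down to SNORD116-16 at 2.33, with a median of 5.06. The probe set of SNORD116-17, at 10.60, also carries SNORD116-16, SNORD116-18 and SNORD116-22, whose own probe sets gave 2.33, 2.99 and 5.38. It carries SNORD116-14, SNORD116-15, SNORD116-20 and SNORD116-21 too, whose own probe sets were above the bound. A copy counted below the bound was thus not shown to be silent. Of 20 SNORD115 copies, 0 were above the bound, and their signals ran between 1.70 (SNORD115-14) and 4.26 (SNORD115-32) with a median of 2.26. Copies of each family are nearly identical, so which copy a probe set reads is uncertain.

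SNORD116 copies were highest on array 2 in 14 of 20 cases, and all measured snoRNA genes in 94 of 175 (53.7%). The median of the SNORD116 copies was 4.78, 5.48 and 5.14 on arrays 1, 2 and 3. The median of all snoRNA genes was 6.26, 6.54 and 6.42, in the same order of arrays. The part of the array in the SNORD116 values was not tested.

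**Figure D4:**
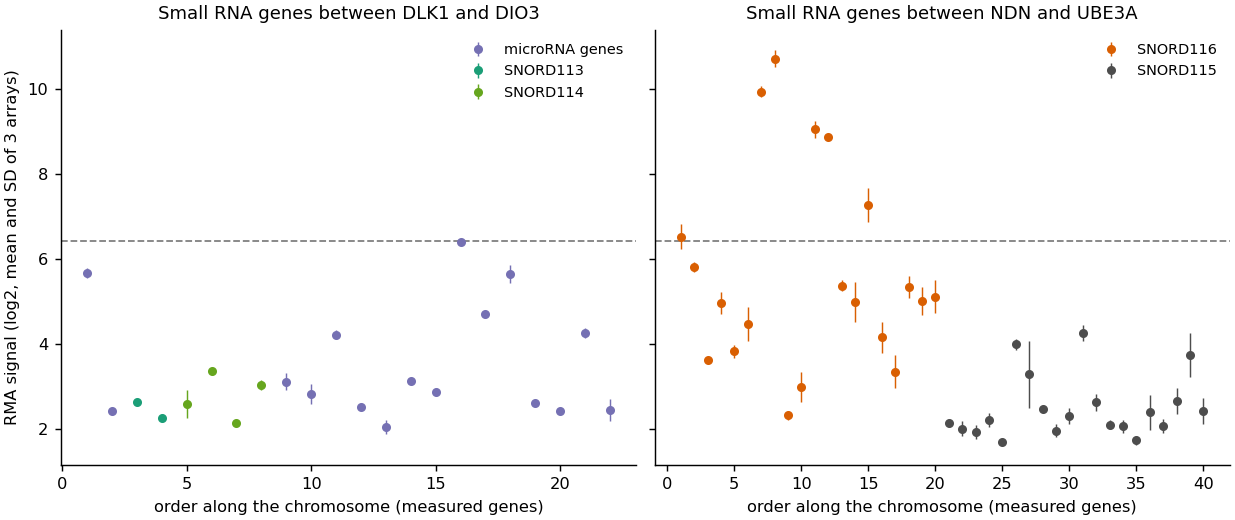
RMA signal (log2, vertical axis; mean and SD of 3 arrays) of small RNA genes with their own probe set, in order along the chromosome (horizontal axis), between DLK1 and DIO3 (left) and between NDN and UBE3A (right); the dashed line is the 95th percentile of the silent families. All 22 genes on the left and all 20 SNORD115 copies lie below the line, and 6 of 20 SNORD116 copies lie above it.

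Promoter sequence was available from RefSeq (GRCh38.p14) for 6 members, as windows of 250 bases before to 50 bases after each of 20 annotated starts. The members differed widely in CpG dinucleotides, the bases that carry DNA methylation. For the start with the most CpG, GRB10 had 49, PLAGL1 39, NDN 35, MEST 25, MEG3 19 and H19 6. The H19 window is that of its only start among the 20, and whether it is the main start of the gene was not checked. The median over all 35116 single starts was 14, which is not a like measure, because a gene can have several starts. By the start with the most CpG of each gene, 2109 of 14239 genes had 10 to 19, 3783 had 20 to 29 and 3382 had 30 to 39. The windows of 4 members are printed to show both ends of this range beside their signals, with each CG in capitals.
GRB10, chr7:50792825-50793124, minus strand: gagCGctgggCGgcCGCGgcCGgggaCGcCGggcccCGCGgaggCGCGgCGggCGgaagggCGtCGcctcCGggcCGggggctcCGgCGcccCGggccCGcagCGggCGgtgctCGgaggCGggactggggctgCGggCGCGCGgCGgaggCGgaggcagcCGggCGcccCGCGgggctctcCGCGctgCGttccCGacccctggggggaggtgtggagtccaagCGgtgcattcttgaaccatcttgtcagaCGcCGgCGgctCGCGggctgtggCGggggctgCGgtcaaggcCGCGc
NDN, chr15:23687256-23687555, minus strand: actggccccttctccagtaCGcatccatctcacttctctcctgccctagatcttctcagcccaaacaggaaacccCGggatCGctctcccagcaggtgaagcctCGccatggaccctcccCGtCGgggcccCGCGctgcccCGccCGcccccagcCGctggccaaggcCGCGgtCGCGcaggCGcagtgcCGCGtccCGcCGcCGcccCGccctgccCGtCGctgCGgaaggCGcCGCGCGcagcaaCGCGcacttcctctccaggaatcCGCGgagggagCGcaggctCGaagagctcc
MEG3, chr14:100825858-100826157, plus strand: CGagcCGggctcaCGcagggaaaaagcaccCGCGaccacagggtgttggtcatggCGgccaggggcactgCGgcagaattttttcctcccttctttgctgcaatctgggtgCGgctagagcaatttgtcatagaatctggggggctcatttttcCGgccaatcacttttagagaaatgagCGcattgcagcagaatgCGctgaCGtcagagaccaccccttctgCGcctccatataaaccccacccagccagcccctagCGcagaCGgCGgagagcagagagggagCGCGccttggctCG
H19, chr11:2001217-2001516, minus strand: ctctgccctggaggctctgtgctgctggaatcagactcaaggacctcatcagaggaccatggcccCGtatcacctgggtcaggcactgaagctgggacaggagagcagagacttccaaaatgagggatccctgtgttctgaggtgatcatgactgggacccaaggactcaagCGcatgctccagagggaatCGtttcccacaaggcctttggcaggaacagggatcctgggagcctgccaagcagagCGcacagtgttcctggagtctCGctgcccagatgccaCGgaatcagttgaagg

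In order of falling CpG count, the signals were 4.61 for GRB10, 6.08 for PLAGL1, 4.21 for NDN, 5.05 for MEST, 5.70 for MEG3 and 6.30 for the shared probe set of H19. Both members above the bound, PEG10 and DLK1, had no window among those used here, so all 6 members with a window lay below it. Over the 14239 genes with a signal and a start, the share above the bound was 6.83% for 0 to 4 CpG, 18.5% for 5 to 9, 54.3% for 10 to 19, 75.3% for 20 to 29, 76.4% for 30 to 39 and 80.5% for 40 or more. GRB10 was thus 1 of 367 genes with 40 or more CpG that were not above the bound, and NDN and PLAGL1 were among 797 such genes with 30 to 39. Methylation itself was not measured. The letters TGCCGC, the core of the motif bound by ZFP57, were searched on both strands and lay in 16.7% of all starts. They occurred in 10 of the 20 starts of members. Counted by gene, they lay at a start of 5 of the 6 members, all but H19, and the like share of all genes was not computed. Members with several starts, some of them overlapping, have more windows in which to hold these letters, and such a match is not a binding site.

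**Figure D5:**
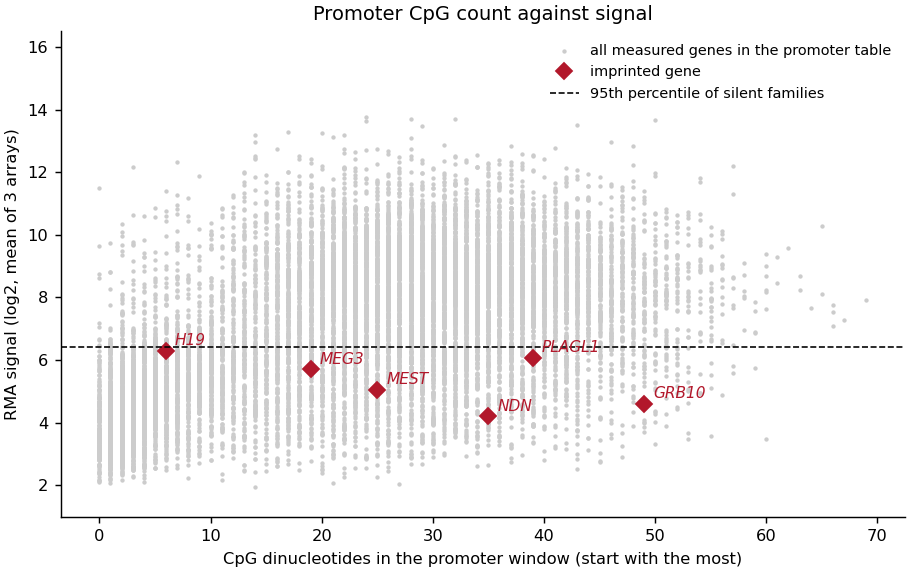
Mean RMA signal (log2, vertical axis) against the number of CpG dinucleotides in the promoter window with the most CpG (horizontal axis) for 14239 genes (grey) and 6 imprinted genes (diamonds); the dashed line is the 95th percentile of the silent families. The 6 members shown lie below the line, between 6 CpG for H19 and 49 for GRB10; PEG10 and DLK1, the members above it, are not among them.

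Of the genes that set, keep, read or erase imprints, 18 of 23 (78.3%) were above the bound, against 56.3% of all genes. Above the 99th percentile of the silent families there were 12, and the like share of all genes is not given here. The 18 include CTCFL, at 6.45 on the mean of 2 probe sets at 8.38 and 4.51, which was above the array's own bound on 1 array only. UHRF1, counted in both the 18 and the 12, was at 7.92 on the mean of 2 probe sets at 10.02 and 5.82. Its second probe set was below the bound, and its mean was close to the 99th percentile of 7.88. TRIM28, the corepressor recruited to imprinting control regions, gave 11.89 ± 0.04 (SD, n = 3), DNMT1, the maintenance DNA methyltransferase, 9.85 ± 0.05, and CTCF, which binds the H19 insulator, 9.86 ± 0.06. The cohesin subunit RAD21 (10.92), SMCHD1 (10.43) and the histone methyltransferase EZH2 (10.23) were also high. ZFP57, the zinc finger protein that guides TRIM28 to methylated imprints, gave 5.22 ± 0.11, and DPPA3, a protector of imprints in the early embryo, 4.33 ± 0.12 (2 probe sets, at 4.86 and 3.80), both below the bound. CHD8 gave 8.07, 9.33 and 9.20, so that array 1 was lower by over 1 unit, and all 3 values were above the bound.

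Genes listed as imprinted in other clusters were above the bound in 15 of 27 cases (55.6%), a share near the 56.3% of all genes. Whether each is imprinted in these cells was not measured, and IGF2R is counted in the IGF list as well. NLRP2 (10.25 ± 0.08), GNAS, the stimulatory G protein subunit gene (10.12 ± 0.02), BLCAP (9.42 ± 0.04), IGF2R (9.36 ± 0.05) and NAA60 (9.07 ± 0.05) were the highest (SD, n = 3). GPR1, now named CMKLR2, was the lowest at 3.60 ± 0.15.

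A list of IGF ligands, receptors, binding proteins, adaptors and regulators of IGF2 had 13 of 21 genes (61.9%) above the bound, near the 56.3% of all genes. IGF2R, the receptor that clears IGF2, gave 9.36 ± 0.05 (SD, n = 3). IGF1R, the receptor that signals for IGF1 and IGF2, gave 7.57 ± 0.06 on the mean of 2 probe sets that differed, at 8.32 and 6.81, both above the bound. The RNA-binding proteins IGF2BP1 (10.05 ± 0.01), IGF2BP2 (9.08 ± 0.04) and IGF2BP3 (9.38 ± 0.03), named for the IGF2 transcript they bind, and the adaptor IRS1 (10.01 ± 0.08) were high. IGF1 was the lowest of the list at 3.83 ± 0.08. IGF2R, IGF1R and the 3 RNA-binding proteins were above the bound in these cells, and the probe set of IGF2 itself was below it.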

How the data were processed

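Total RNA isolated in triplicate from C33A cells was labelled and hybridised to 3 Human Gene 1.0 ST arrays. The authors extracted the intensities with the Affymetrix Command Console software, normalised them by RMA and processed them further with oneChannelGUI, and the deposited values are log2 signals, 1 per probe set and array. The sources used here do not give the versions. Depth does not apply to arrays, and their number, 3, limits the precision.

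Gene symbols came from the platform annotation and were brought up to date with RefSeq genes (GRCh38.p14). Of 33297 probe sets, 19460 carried 1 symbol, 1754 several and 12083 none. The single-symbol probe sets of a gene were averaged, and a gene without one was read from the first listed of its shared probe sets. Named are all members, their cluster neighbours above the bound or imprinted, and from each other list the 5 highest, the lowest and genes of a role beside a member; other genes named, among them neighbours below the bound, were chosen after their values were seen. The members and lists were chosen with earlier results of these data known. The bound was the 95th percentile of 455 protein-coding genes of the silent families. Alternatives changed the bound, the probe sets, the centring and the arrays used. On simulated signals for 18417 genes, 98.7% fell on the planted side of the bound. The simulation took the measured means as true levels and added noise, so it checks the computation only. It cannot show whether the bound separates expressed from silent genes, nor settle genes near it. Python 3.11.15, NumPy 2.4.6, pandas 2.3.3 and matplotlib 3.10.9 were used.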

Additional observations from a re-analysis of the deposited data

How the results depend on the processing

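The number of imprinted genes above the bound was 2 with each array left out in turn (range 2 to 2), with the highest probe set of a gene, with arrays centred on their medians and, chosen after seeing the data, with only members that have their own probe set. It was 1, PEG10 alone, with the 99th percentile of the silent families (7.88), and 6 with olfactory receptor genes alone, whose 95th percentile was 5.38, against 7.96 for keratin-associated protein genes. With the 99th percentile the cluster neighbours above the bound numbered 10 in place of 21, the imprint control genes 12 in place of 18, the other imprinted genes 10 in place of 15 and the IGF list 9 in place of 13. The shares of all genes above these other bounds are not given here, so the changed counts have no like share beside them. Each member has 1 probe set, so only leaving out an array could move its mean, the most for GRB10, at 4.85 without array 2 in place of 4.61. The largest moves of a percentile were for GRB10, at 20.7 without array 2 in place of 17.8, and DLK1, at 43.7 among protein-coding genes in place of 46.3. The SD changed by over 0.5 of its value in 6 of 40 alternatives, each without array 1 or array 2; that of NDN was 0.0926 without array 3 in place of 0.176.

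With 3 arrays an SD is itself poorly known, and outlying arrays were not tested for. DLK1 and the probe set of H19 lay within 0.2 of the bound, so their side of it is not settled by these arrays. No paired analysis was possible because the 3 arrays form 1 group.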
